A study of Mus musculus with 23 samples.

Results

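The genes described here are the 3 subunits of the epithelial sodium channel and 6 genes of the steroid signal that controls it, taken by gene symbol from the count table of mouse colonic epithelium. They are Scnn1a, Scnn1b, Scnn1g, Sgk1, Hsd11b2, Nr3c1, Nr3c2, Tsc22d3 and Fkbp5, 9 of the 24917 loci in the table, and each symbol stood at a single locus. Their levels were not used to choose them, but results of these libraries were already known when the list was made. The subunits of the sodium pump are not among the 9.

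Total RNA depleted of ribosomal RNA was sequenced from the colonic epithelium of male C57BL/6 mice (C57BL/6J in the study's methods) that were 6 weeks old when the diets began and spent 43 weeks on them. LF mice ate a diet with 10% fat and HF mice one with 60% fat for the whole time, while HF-LF mice (labelled HFLF) ate the HF diet for 15 weeks and then the LF diet for 28 weeks. The labels name no transgene, drug or gene deletion in any group. The question was what long feeding on fat does to transcripts of this epithelium and whether a return to the LF diet takes it back. The libraries came in 2 batches, with 4 LF, 3 HF and 4 HF-LF libraries in batch 1 and 4 LF, 3 HF and 5 HF-LF libraries in batch 2. The study's methods give 5 mice for each regimen, and the labels do not say which libraries came from the same mouse, so the p-values below measure the spread between these libraries.

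The channel lets sodium from the lumen into the surface cells of the distal colon, and the sodium pump on the other side of the cell moves it on to the blood. It is built of an alpha, a beta and a gamma subunit, encoded by Scnn1a, Scnn1b and Scnn1g. Aldosterone raises its activity through the mineralocorticoid receptor, encoded by Nr3c2, a nuclear receptor that binds cortisol and corticosterone as well. The enzyme 11-beta-hydroxysteroid dehydrogenase type 2, encoded by Hsd11b2, inactivates those glucocorticoids in the cell, so that aldosterone can reach the receptor. Glucocorticoids act mainly through the glucocorticoid receptor, encoded by Nr3c1. Sgk1 encodes a kinase that both receptors induce and that keeps the channel at the membrane by restraining the ubiquitin ligase Nedd4-2, while Tsc22d3 (GILZ) and Fkbp5 are widely used readouts of steroid receptor activity.

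Between 29189922 and 65320947 reads were counted per library, so that 3 reads, the floor used here, stood for 0.0459 to 0.103 CPM (counts scaled to 1000000 per library). Colonocyte markers summed to 5400 to 13500 CPM in all libraries and distal colon Hox genes to 204 to 394 CPM, and 0 of 6 markers of either list were called in any comparison. Goblet markers summed to 16600 to 42700 CPM, proximal colon markers to 629 to 2780 CPM, enteroendocrine markers to 113 to 296 CPM and stem markers to 69.1 to 145 CPM. The marker sums of cells from outside the epithelium were 14.3 to 30.5 CPM for leukocytes, 3.13 to 88 CPM for stroma and muscle and 1.53 to 9.85 CPM for endothelium, with Cd79a, Cdh5 and Actg2 among the markers at 0 in some libraries. Of the other lists, called markers were Tff3 (goblet), Ang4 (proximal colon), Smoc2 and Axin2 (stem), Cd3e (leukocyte) and Actg2 (muscle). HF library 3 of batch 1 stood apart from all others on the second principal component (50.5, next highest 18.3). This library had the lowest goblet, stem, stroma and endothelium sums of its batch, at 16600, 69.1, 3.13 and 1.53 CPM. HF library 1 of batch 2 did not stand apart on the first 2 components, and it had the lowest endothelium and leukocyte sums of its batch, at 4.03 and 14.3 CPM, narrowly under the next lowest at 4.65 and 15 CPM. Both matter below because they were the highest for several of the 9 genes. The part of cell composition in any difference was not tested, and in whole epithelium fewer cells of a type cannot be told apart from less RNA per cell.

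Genes were tested with edgeR's quasi-likelihood test, with p-values adjusted by Benjamini-Hochberg over all genes tested, within each batch and in both batches together with batch as a term. A gene was called where its adjusted p was under 0.05 and its fold change above 1.2, and all 9 genes passed the filter on low counts. HF was compared with LF, and HF-LF with HF and with LF. The first 2 comparisons share the HF libraries, so a gene that is high in HF is high in the one and low in the other by construction.

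For HF against LF, 0 of the 9 genes were called in batch 1 (0% of all genes), 1 in batch 2 (7.44% of all genes) and 4 in both batches together (18.1% of all genes). For HF-LF against HF, 0 were called in batch 1 (0.00693% of all genes), 5 in batch 2 (14.5%) and 5 in both batches (10.3%). For HF-LF against LF, 0 were called in batch 1 (0% of all genes), 0 in batch 2 (0.00696%) and 0 in both batches (0%). In each of these fits 0 of the 9 had an unadjusted p under 0.05, beside 763 of 14428, 669 of 14377 and 591 of 14385 genes. The empty count of batch 1 came with 3 of the 9 genes at an unadjusted p under 0.05 for HF against LF and 5 for HF-LF against HF. Among all 14428 genes tested there, 3198 and 1566 had such a p. DESeq2 also called 0 of the 9 in batch 1 for either comparison. Over all 14428 genes it called 512 for HF against LF and 17 for HF-LF against HF. Voom with sample weights, which gives less weight to libraries that deviate, called 3 (Scnn1a, Nr3c2 and Tsc22d3, all lower) for HF against LF. It called 0 of the 9 for HF-LF against HF. Over all genes voom called 2422 for HF against LF and 3 for HF-LF against HF. For HF-LF against LF, DESeq2 and voom called 0 of the 9 in each batch and in both. The median log2 fold change of the 9 genes for HF against LF was 0.28 in batch 1, 0.24 in batch 2 and 0.26 in both, beside medians over all genes of -0.0038, -0.01 and -0.01. Each time it was the value of Hsd11b2, which was not called. In each fit 5 of the 9 genes were higher and the rest lower, so the median does not describe a shift of all 9. The batches did not differ detectably: the interaction of batch and diet was called for 0 of the 9 genes and 0% of all genes in each of the 3 comparisons, with 0 of the 9 at an unadjusted p under 0.05 and 0 called by DESeq2.

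**Figure D1:**
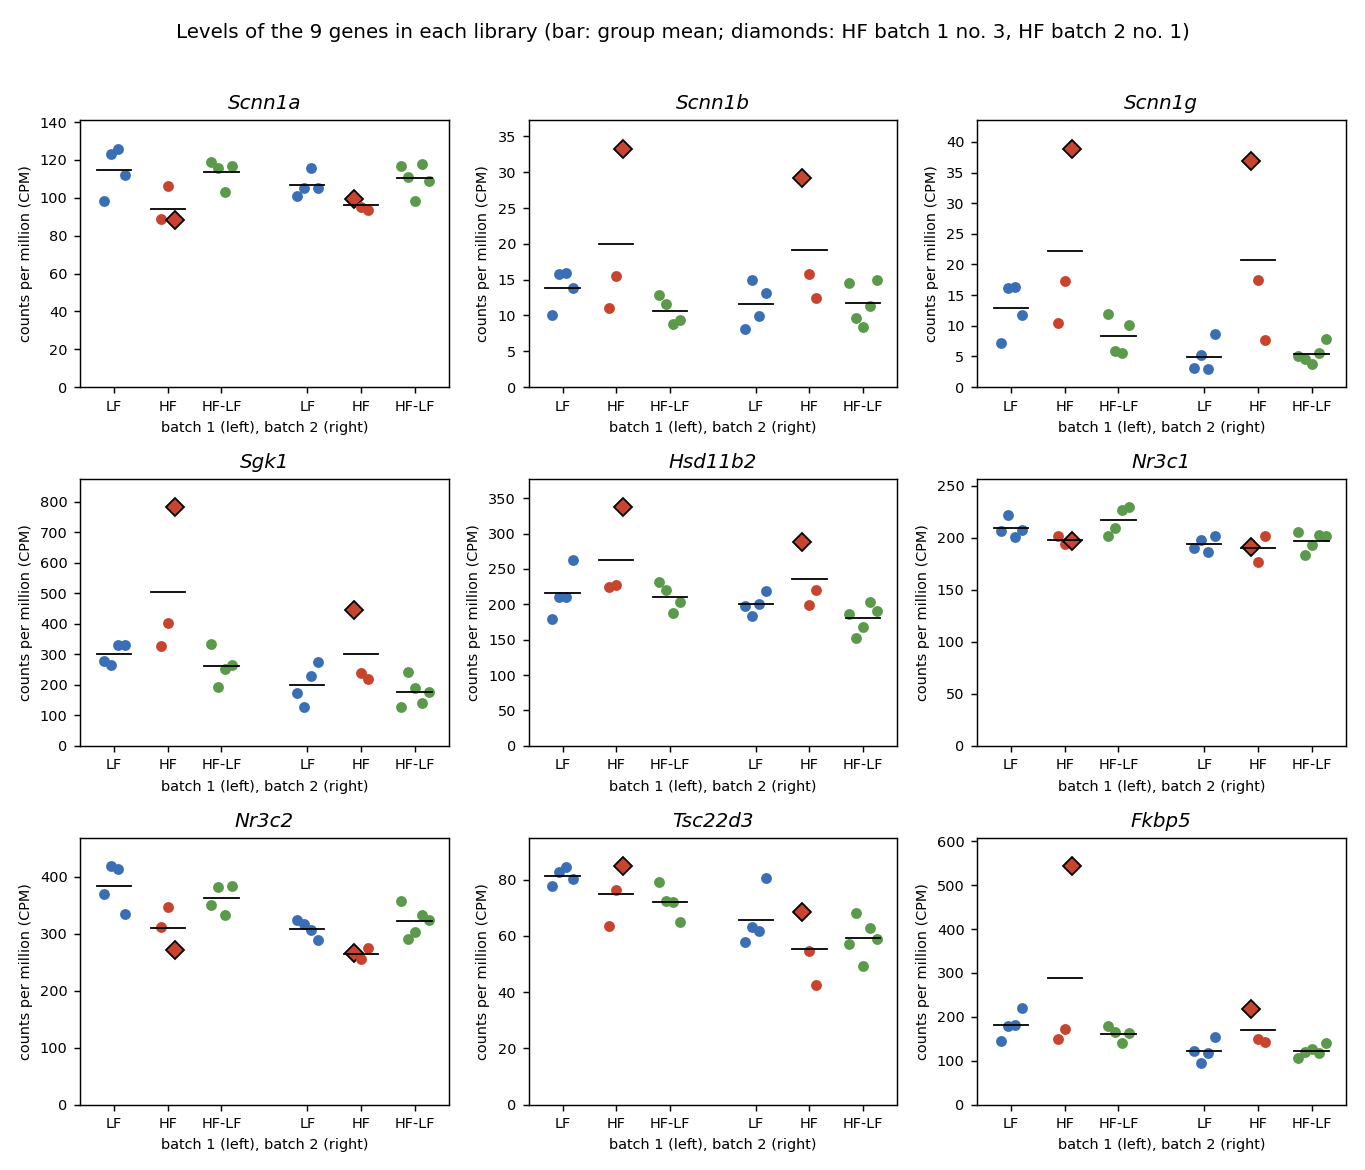
Level of each of the 9 genes in every library, in CPM on a linear axis that starts at 0, with 1 point per library, the diets side by side for each batch, a bar at the group mean and diamonds for HF library 3 of batch 1 and HF library 1 of batch 2. For Scnn1g the highest HF library reached 38.9 CPM in batch 1 and 36.9 CPM in batch 2, while Nr3c1 stayed between 177 and 229 CPM in all libraries.

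Per kb of exon, Hsd11b2 was the most abundant of the 9 in LF mice and the gamma subunit the least. In batch 1 the LF medians were 114 CPM per kb for Hsd11b2, 62.1 for Sgk1, 60.4 for Nr3c2, 28.4 for Scnn1a, 26.9 for Nr3c1, 19.1 for Fkbp5, 18.8 for Tsc22d3, 5.62 for Scnn1b and 4.66 for Scnn1g. Neighbours whose LF libraries overlapped in that order were Sgk1 and Nr3c2, Scnn1a and Nr3c1, Fkbp5 and Tsc22d3, and Scnn1b and Scnn1g. In batch 2 the order was similar, from 108 CPM per kb for Hsd11b2 to 4.4 for Scnn1b and 1.4 for Scnn1g, and there the last pair did not overlap.

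The gamma subunit gave the largest differences of the 9 genes. Scnn1g lies on mm10 chromosome 7 (121734507-121768477, plus strand), and Scnn1b follows 96.6 kb downstream on the same strand (121865038-121918728) with 0 other loci of the table between them. The 250 bases before a RefSeq start of each gene, which for Scnn1g lies upstream of the start of the locus in the table, are shown because the 2 neighbours have the most similar levels of the 9, and neither window holds the steroid receptor hexamer TGTTCT on either strand.
Scnn1g, chr7:121734229-121734478, plus strand: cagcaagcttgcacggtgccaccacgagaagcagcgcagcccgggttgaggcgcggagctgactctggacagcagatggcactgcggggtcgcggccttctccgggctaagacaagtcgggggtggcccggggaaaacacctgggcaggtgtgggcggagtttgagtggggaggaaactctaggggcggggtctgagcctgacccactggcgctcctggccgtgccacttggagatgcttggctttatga
Scnn1b, chr7:121864788-121865037, plus strand: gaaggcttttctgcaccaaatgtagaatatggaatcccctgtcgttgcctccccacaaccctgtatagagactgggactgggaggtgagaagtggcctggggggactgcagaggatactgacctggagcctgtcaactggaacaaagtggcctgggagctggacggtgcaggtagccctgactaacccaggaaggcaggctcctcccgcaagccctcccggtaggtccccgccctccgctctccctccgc

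In batch 1, Scnn1g stood at 7.26, 16.2, 16.3 and 11.7 CPM in LF, at 10.4, 17.3 and 38.9 CPM in HF and at 11.9, 5.92, 5.62 and 10.1 CPM in HF-LF. HF library 3 was higher than any other library, and the HF group overlapped both other groups. In batch 2 it stood at 3.18, 5.2, 2.96 and 8.58 CPM in LF, at 36.9, 17.4 and 7.66 CPM in HF and at 5.1, 4.55, 3.77, 5.51 and 7.8 CPM in HF-LF. Here HF libraries 1 and 2 lay above every LF and HF-LF library, and HF library 3 lay among them. The group means were 12.9 ± 4.31 (SD, n = 4), 22.2 ± 14.9 (SD, n = 3) and 8.38 ± 3.11 CPM (SD, n = 4) for LF, HF and HF-LF in batch 1, and 4.98 ± 2.60 (SD, n = 4), 20.7 ± 14.9 (SD, n = 3) and 5.35 ± 1.52 CPM (SD, n = 5) in batch 2.

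Scnn1g rose in HF against LF in both batches together, by 2.65-fold (log2 fold change 1.41, SE 0.34, edgeR adjusted p = 0.00781). In batch 2 alone it rose 4.08-fold (log2 2.03, SE 0.43, adjusted p = 0.0260), and in batch 1 the log2 fold change was 0.79 (SE 0.40, adjusted p = 0.257). It fell in HF-LF against HF in both batches (log2 -1.70, SE 0.33, adjusted p = 0.00778) and in batch 2 (log2 -1.94, SE 0.40, adjusted p = 0.0138), with -1.41 in batch 1 (SE 0.41, adjusted p = 0.412). HF-LF and LF gave -0.29 (SE 0.32, adjusted p = 0.980). The batch 2 value for HF against LF was 1.24 log2 units above that of batch 1 (SE 0.66, adjusted p = 0.783). Both calls in the 2 batches together held when any 1 of the 23 libraries was left out, with adjusted p up to 0.0281 and 0.0271. Voom with sample weights lost both calls narrowly, at 1.08 (adjusted p = 0.0503) and -1.08 (adjusted p = 0.0537). Without HF library 3 of batch 1 and HF library 1 of batch 2 together, which were picked as the highest for Scnn1g, the log2 fold changes were 0.72 (SE 0.31, adjusted p = 0.116) and -0.998 (SE 0.30, adjusted p = 0.0676). In batch 2 alone, the call against LF was lost without HF library 1 (log2 1.30, adjusted p = 0.0562), HF library 2 (2.14, 0.101), LF library 1 (1.87, 0.0794) or LF library 3 (1.85, 0.0853), and the call of HF-LF against HF without HF library 2 (-2.06, 0.0770).

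Scnn1b followed with smaller differences. It stood at 10.1, 15.8, 15.9 and 13.8 CPM in LF, 11, 15.5 and 33.3 CPM in HF and 12.8, 11.6, 8.77 and 9.4 CPM in HF-LF in batch 1. In batch 2 the values were 8.13, 15, 9.99 and 13.2 CPM in LF, 29.2, 15.8 and 12.5 CPM in HF and 14.6, 9.62, 8.4, 11.3 and 14.9 CPM in HF-LF. In each batch, 1 HF library, the same one as for Scnn1g, was far above the rest. The other HF libraries of batch 1 lay within the LF range. In batch 2, HF library 2 lay narrowly above all LF and HF-LF libraries, and HF library 3 lay among them. Scnn1b rose 1.54-fold in HF against LF in both batches (log2 0.62, SE 0.22, edgeR adjusted p = 0.0353) and fell in HF-LF against HF (log2 -0.78, SE 0.21, adjusted p = 0.0201), and no batch alone gave a call. The call against LF was lost without HF library 3 of batch 1 (log2 0.40, adjusted p = 0.158), HF library 1 of batch 2 (0.45, 0.118), LF library 1 of batch 1 (0.58, 0.0561), LF library 1 of batch 2 (0.55, 0.0676) or LF library 3 of batch 2 (0.58, 0.0619). The call of HF-LF against HF was lost without either of those HF libraries (-0.58, 0.0697, and -0.60, 0.0570). With all 23 libraries, the call against LF was also lost with a replicate block (0.55, 0.0609) and with voom sample weights (0.36, 0.250). It was lost as well when same-numbered libraries of a diet were taken as 1 mouse (0.52, 0.0569). That fit also used voom in place of edgeR. Voom with sample weights lost the call of HF-LF against HF too (-0.44, 0.174).

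The alpha subunit was slightly lower in HF in both batches. Scnn1a, on chromosome 6 (125321340-125344942, plus strand), stood at 98.3, 123, 126 and 112 CPM in LF, 88.8, 106 and 88.2 CPM in HF and 119, 116, 103 and 117 CPM in HF-LF of batch 1. In batch 2 it stood at 101, 105, 116 and 105 CPM in LF, 99.4, 95.2 and 93.5 CPM in HF and 117, 111, 98.2, 118 and 109 CPM in HF-LF, and there all 3 HF libraries lay below all 4 LF libraries. Groups that did not overlap for HF against LF were seen for 0 of the 9 genes in batch 1 (13.6% of all genes) and 2 in batch 2 (27.3% of all genes), Scnn1a and Nr3c2. The difference in both batches was -0.21 (log2, SE 0.06, edgeR adjusted p = 0.0143), a ratio of 0.862, and that of HF-LF against HF was 0.24 (SE 0.06, adjusted p = 0.0154). Both passed the adjusted p and stayed under the fold of 1.2, so neither was called. Without the 2 HF libraries that were highest for Scnn1g the values stayed close, at -0.20 (adjusted p = 0.0606) and 0.22 (adjusted p = 0.0667).

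Because the fitted differences of alpha and gamma had opposite signs, the balance of the 3 transcripts was computed per exon length. The alpha to gamma ratio was 5.51 to 9.8 in LF and 7.23 to 14.2 in HF-LF of batch 1, and the 3 HF libraries gave 6.16, 4.44 and 1.64. In batch 2 the ratio was 8.83 to 28.3 in LF and 10.1 to 18.8 in HF-LF, and the HF libraries gave 1.95, 3.96 and 8.83. The gamma transcript made up 27.7% of the 3 in HF library 3 of batch 1 and 26% in HF library 1 of batch 2. These were the HF libraries highest for Scnn1g. The other HF libraries gave 12% and 15.5% in batch 1 and 16.7% and 8.56% in batch 2. The share was 3.02% to 13.1% over all LF libraries and 4.47% to 10.6% over all HF-LF libraries. The alpha to beta ratio was 1.69 in HF library 3 of batch 1 and 2.17 in HF library 1 of batch 2. It was 5.14 and 4.36 in the other HF libraries of batch 1 and 3.84 and 4.76 in those of batch 2. In every LF and HF-LF library it was at least 4.46. These shares are a description of transcripts and not of assembled channels.

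**Figure D2:**
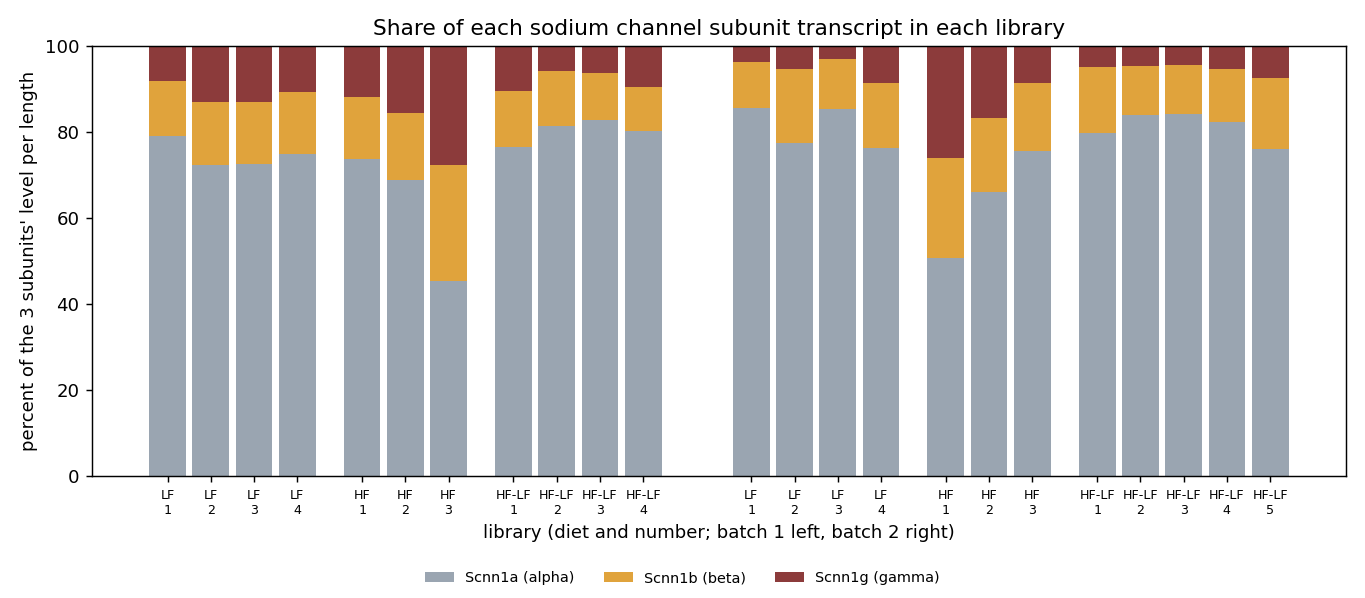
Share of Scnn1a, Scnn1b and Scnn1g in the summed CPM per kb of the 3 subunits, in percent, with 1 bar per library and batch 1 to the left of batch 2. The gamma share was 27.7% in HF library 3 of batch 1 and 26% in HF library 1 of batch 2. It was 8.56% to 16.7% in the other HF libraries and at most 13.1% in LF.

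Upstream of the channel, the kinase gene Sgk1 showed the same 2 HF libraries on top. Sgk1 spans 21882184-21999902 on chromosome 10 (plus strand), with 6 RefSeq start windows in GRCm38.p6. One of them holds the palindrome of AGAACA and TGTTCT separated by 3 bases, the classical binding motif of glucocorticoid and mineralocorticoid receptors, at chr10:21993701-21993715. It reads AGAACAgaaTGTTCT and lies 175 bases before that start and 951 bases before the last start of the gene. It is shown with its window, hexamers in capitals, because the palindrome stood in only 3 of 32851 promoter windows of all genes (0.00913%).
Sgk1, chr10:21993640-21993889, plus strand: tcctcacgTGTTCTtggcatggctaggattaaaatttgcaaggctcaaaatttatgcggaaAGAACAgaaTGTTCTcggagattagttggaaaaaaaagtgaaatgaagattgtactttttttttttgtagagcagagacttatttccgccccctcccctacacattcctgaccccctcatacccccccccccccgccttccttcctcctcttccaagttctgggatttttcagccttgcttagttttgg

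The shorter motif was less rare. Of the 9 genes, 6 had windows, 13 in all, and the hexamer TGTTCT on either strand was in 4 of them, 3 of Sgk1 and 1 of Tsc22d3, against 19% of windows of all genes. A match of letters says nothing on binding in this tissue, and no binding was measured here.

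In batch 1, Sgk1 stood at 277, 266, 332 and 332 CPM in LF, 327, 404 and 782 CPM in HF and 333, 194, 251 and 264 CPM in HF-LF. In batch 2 it stood at 172, 126, 229 and 276 CPM in LF, 447, 238 and 219 CPM in HF and 127, 243, 190, 142 and 175 CPM in HF-LF. The highest library of each batch was an HF library, and the remaining HF libraries overlapped the LF range except for HF library 2 of batch 1. Sgk1 rose 1.59-fold in HF against LF in both batches (log2 0.67, SE 0.20, edgeR adjusted p = 0.0189), with 0.74 (SE 0.25, adjusted p = 0.166) in batch 1 and 0.59 (SE 0.28, adjusted p = 0.155) in batch 2. It fell in HF-LF against HF in both batches (log2 -0.86, SE 0.19, adjusted p = 0.0132) and in batch 2 (-0.78, SE 0.26, adjusted p = 0.0499). The first call was lost without HF library 3 of batch 1 (log2 0.47, adjusted p = 0.0773) or HF library 1 of batch 2 (0.52, 0.0588) and with voom sample weights over all libraries (0.52, 0.0627), while the second, in both batches, held with any 1 library left out (adjusted p up to 0.0412). The batch 2 call was at the threshold and was lost without HF library 1 (-0.38, adjusted p = 0.288), HF library 2 or 3, HF-LF library 1, 3, 4 or 5, or LF library 1 or 3 (adjusted p from 0.0529 without LF library 1). In all it was lost in 12 of 17 alternatives, some of them changes of method with every library of batch 2 kept.

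The enzyme gene Hsd11b2 varied little. On chromosome 8 (105518746-105523988, plus strand), it stood at 179, 210, 211 and 262 CPM in LF, 224, 227 and 337 CPM in HF and 231, 221, 188 and 204 CPM in HF-LF of batch 1. The batch 2 values were 197, 183, 201 and 219 CPM in LF, 288, 199 and 220 CPM in HF and 186, 152, 168, 204 and 191 CPM in HF-LF. The groups overlapped in both batches, with the same 2 HF libraries on top. Hsd11b2 fell in HF-LF against HF in both batches (log2 -0.35, SE 0.10, edgeR adjusted p = 0.0224) and in batch 2 (-0.39, SE 0.11, adjusted p = 0.0325). The call in both batches was lost without HF library 3 of batch 1 (-0.28, 0.0634) or HF library 1 of batch 2 (-0.28, 0.0562), and the batch 2 call without HF library 1 (-0.22, 0.148), HF library 2 (-0.51, 0.0792), HF library 3 (-0.43, 0.0582) or HF-LF library 1 (-0.40, 0.0582). HF against LF gave 0.26 in both batches (SE 0.10, edgeR adjusted p = 0.0516), a ratio of 1.199, just short of both thresholds. It was called in 13 of 30 alternatives, DESeq2 among them (log2 0.27, adjusted p = 0.0327), and not in the other 17.

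Of the receptors, the mineralocorticoid receptor was slightly lower in HF and the glucocorticoid receptor close to level. Nr3c2, on chromosome 8 (76902508-77243639, plus strand), stood at 369, 418, 413 and 334 CPM in LF, 312, 347 and 272 CPM in HF and 350, 382, 333 and 383 CPM in HF-LF of batch 1. In batch 2 it stood at 324, 317, 306 and 288 CPM in LF, 266, 255 and 274 CPM in HF and 357, 291, 303, 332 and 324 CPM in HF-LF. In batch 2 all 3 HF libraries lay below all LF and all HF-LF libraries. For HF against LF the log2 fold change in both batches was -0.26 (SE 0.06, edgeR adjusted p = 0.00785), a ratio of 0.834 that fell just short of the fold needed for a call. Nr3c2 rose in HF-LF against HF in batch 2 (1.21-fold, log2 0.28, SE 0.07, adjusted p = 0.0215), a fold at the edge of the threshold, and gave 0.26 in both batches (SE 0.06, adjusted p = 0.0150). That batch 2 call was lost without HF library 2 (0.24, 0.137), HF library 3 (0.30, 0.0509) or HF-LF library 1 (0.24, 0.0469, by fold). In all it was lost in 4 of 17 alternatives.

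Nr3c1, on chromosome 18 (39410545-39487245, minus strand), stood at 194 to 202 CPM in HF, 201 to 222 CPM in LF and 202 to 229 CPM in HF-LF of batch 1. In batch 2 it stood at 186 to 202 CPM in LF, 177 to 202 CPM in HF and 183 to 205 CPM in HF-LF. The log2 fold change in both batches was -0.05 for HF against LF (adjusted p = 0.385) and 0.10 for HF-LF against HF (adjusted p = 0.128). For HF-LF against HF, groups that did not overlap were seen for 1 gene in batch 1 (8.02% of all genes), Nr3c1, whose margin was under 1 CPM, and 2 in batch 2 (27% of all genes), Nr3c2 and Fkbp5. For HF-LF against LF no group of the 9 genes was apart in batch 1 (2.41% of all genes) or batch 2 (1.29% of all genes).

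Of the readout genes of steroid receptors, Fkbp5 was called and Tsc22d3 was not. Fkbp5, on chromosome 17 (28398753-28486149, minus strand), encodes a co-chaperone of steroid receptors. In batch 1 it stood at 145, 180, 182 and 220 CPM in LF, 150, 173 and 543 CPM in HF and 178, 165, 141 and 164 CPM in HF-LF. In batch 2 it stood at 122, 95.4, 117 and 154 CPM in LF, 218, 150 and 142 CPM in HF and 106, 120, 127, 118 and 140 CPM in HF-LF. The 543 CPM of HF library 3 in batch 1 was the highest of all libraries, and in batch 2 all 3 HF libraries lay above all 5 HF-LF libraries. Fkbp5 rose 1.49-fold in HF against LF in both batches (log2 0.58, SE 0.20, edgeR adjusted p = 0.0317) and fell in HF-LF against HF in both batches (-0.64, SE 0.19, adjusted p = 0.0281) and in batch 2 (-0.48, SE 0.15, adjusted p = 0.0383). In both batches, without HF library 3 of batch 1 the values were 0.23 (adjusted p = 0.212) and -0.31 (adjusted p = 0.112), and without HF library 1 of batch 2 they were 0.52 (0.0680) and -0.58 (0.0571). The first was also lost without LF library 1 of batch 1 (0.53, 0.0517). With all 23 libraries, voom sample weights lost both calls, at 0.33 (adjusted p = 0.107) and -0.31 (adjusted p = 0.145). The batch 2 call was lost without HF library 1 (-0.26, 0.192), HF library 2 (-0.57, 0.114), HF library 3 (-0.59, 0.0504), HF-LF library 1 (-0.43, 0.0840) or HF-LF library 4 (-0.46, 0.0771). In batch 1 alone, the log2 fold change of HF against LF was 0.67 (SE 0.34) with that library and -0.16 without it.

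Tsc22d3, on the X chromosome (140539529-140600522, minus strand), encodes the leucine zipper protein GILZ. It stood at 77.8, 82.9, 84.4 and 80.1 CPM in LF, 63.4, 76.3 and 84.8 CPM in HF and 79.1, 72.5, 72.2 and 64.9 CPM in HF-LF of batch 1. In batch 2 the values were 57.7, 63.1, 61.7 and 80.5 CPM in LF, 68.5, 54.6 and 42.7 CPM in HF and 57.1, 68.2, 49.3, 63 and 58.8 CPM in HF-LF, so the groups overlapped in both batches. HF against LF gave -0.18 in both batches (SE 0.09, edgeR adjusted p = 0.135). Its start window is shown as the only one with the hexamer among the other genes, and like the 2 further Sgk1 windows with the hexamer it lacks the palindrome.
Tsc22d3, chrX:140600523-140600772, minus strand: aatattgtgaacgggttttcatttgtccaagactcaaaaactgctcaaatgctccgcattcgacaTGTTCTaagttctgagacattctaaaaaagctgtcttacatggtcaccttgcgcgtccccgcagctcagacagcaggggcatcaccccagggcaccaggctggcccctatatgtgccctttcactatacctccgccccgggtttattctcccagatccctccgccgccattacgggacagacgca

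The 5 genes that were lower in HF-LF than in HF with a call in both batches (Scnn1b, Scnn1g, Sgk1, Hsd11b2 and Fkbp5) had their highest level of each batch in the same 2 HF libraries. The 2 libraries were left out together as an alternative chosen after the data were seen, so their absence lowers the HF values by construction. Without them, 1 of the 9 genes was called for HF against LF, Tsc22d3, which was lower (log2 -0.32, SE 0.09, edgeR adjusted p = 0.0390), and 0 for HF-LF against HF. Sgk1 then gave 0.24 (adjusted p = 0.328) and -0.44 (adjusted p = 0.114), Scnn1b 0.11 (0.673) and -0.28 (0.292), Fkbp5 0.06 (0.738) and -0.14 (0.422), and Hsd11b2 -0.17 (0.215) for HF-LF against HF. The whole table lost calls as well, from 2605 to 1186 genes for HF against LF and from 1488 to 192 for HF-LF against HF. HF library 3 of batch 1 was also the library with the lowest goblet, stem, stroma and endothelium marker sums of its batch, given above. The part of these in its levels was not tested.

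**Figure D3:**
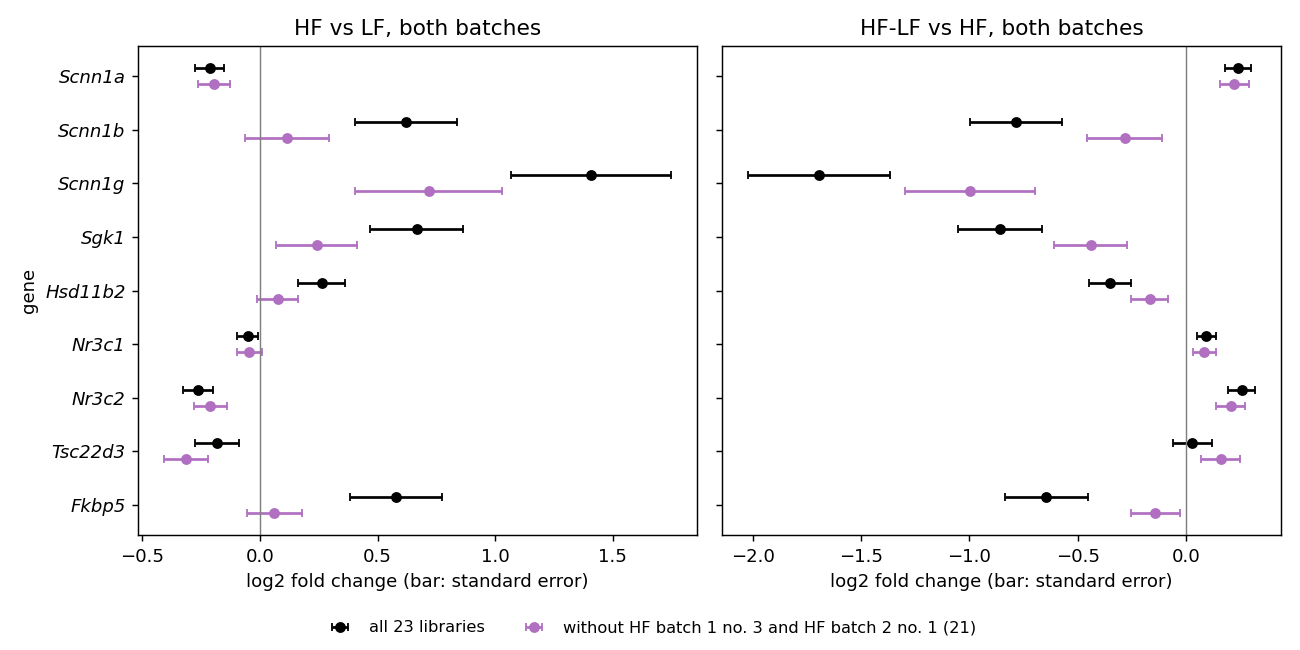
Log2 fold change of each of the 9 genes in both batches, for HF against LF at left and HF-LF against HF at right, with bars of 1 SE, over all 23 libraries (black) and over 21 libraries without the 2 HF libraries (purple). Scnn1g stood at 1.41 and -1.70 with all libraries and at 0.72 and -0.998 without them.

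Across the 23 libraries, Scnn1g and Scnn1b were each other's closest gene. After subtraction of batch means, the log2 CPM of Scnn1g and Scnn1b correlated at Pearson r = 0.892, the highest of 14384 genes for either, and at 0.786 over the 21 libraries without the 2 HF libraries. The next most similar gene for both was Srd5a2, which encodes steroid 5-alpha-reductase type 2, at 0.861 with Scnn1b and 0.856 with Scnn1g, and 0.631 and 0.713 without those libraries. The third were Casp14 for Scnn1b (0.824) and Acy1 for Scnn1g (0.773). For Sgk1 the most similar were Fam43a (0.874), Fkbp5 (0.831) and Rhou (0.83), and those of Hsd11b2 included Fkbp5 (0.832) and Slc46a3 (0.798). Sgk1 and Scnn1b correlated at 0.632 with all libraries and 0.0738 without the 2. These values describe libraries that share diet, batch and depth, and they carry no test.

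The genes most similar to Nr3c2 were Aff1 (r = 0.943), Kat6b (0.942) and Taf4a (0.940), with 0.928, 0.917 and 0.912 without the 2 HF libraries. Nr3c2 correlated with Scnn1a at 0.794 (0.727 without) and with Sgk1 at -0.752 (-0.600 without). The most similar genes of Scnn1a were Map4k5 (0.869), Hnrnpa1 (0.865) and Dusp18 (0.861), and those of Nr3c1 were Gli3 (0.772), Mfn1 (0.767) and Nr1d2 (0.764). Fkbp5 was closest to Slc6a19 (0.857, 0.457 without), Pde9a (0.857, 0.523) and Tmc7 (0.854, 0.398), and Tsc22d3 to Dzip1 (0.651) and Pcdhga1 (0.628).

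**Figure D4:**
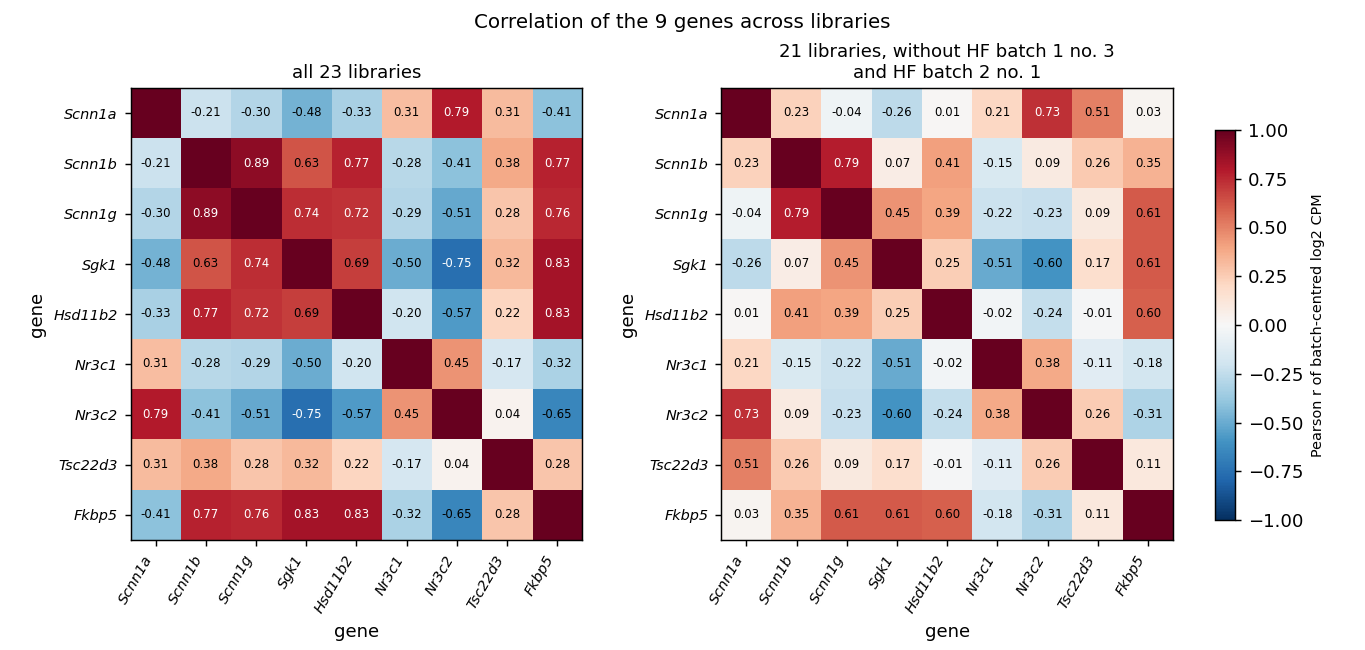
Pearson correlation of batch-centred log2 CPM between the 9 genes, over all 23 libraries at left and over 21 libraries without 2 HF libraries at right, from -1 to 1 in colour. Scnn1g and Scnn1b correlated at 0.892 in all libraries and 0.786 in 21, and Sgk1 and Scnn1b at 0.632 and 0.0738.

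Other genes that move sodium or regulate the channel were called about as often as all genes. Of 27 sodium transport genes, all 27 passed the filter, and 0 were called higher and 5 lower in HF against LF in both batches, beside 18.1% of all genes called (1294 higher and 1311 lower). Wnk4, a kinase that controls sodium and potassium handling, fell most (log2 -0.50, SE 0.11, edgeR adjusted p = 0.00606). Its CPM went from 75.4 ± 8.98 (SD, n = 4) in LF to 54.6 ± 4.90 (SD, n = 3) in HF in batch 1 and from 57.9 ± 8.60 (SD, n = 4) to 39.7 ± 4.49 (SD, n = 3) in batch 2. Kcnk5, a potassium channel gene, fell by 0.39 (SE 0.12, edgeR adjusted p = 0.0234). Its mean went from 174 to 113 CPM in batch 1 (HF libraries 62.7 to 141 CPM) and from 148 to 130 CPM in batch 2. Usp2, a deubiquitinase, fell by 0.37 (SE 0.12, adjusted p = 0.0268), from 63.9 to 39.9 CPM in batch 1 but 40.2 to 37.9 CPM in batch 2. Furin, a protease that cleaves channel subunits, fell by 0.34 (SE 0.08, adjusted p = 0.00606). Its mean went from 97.6 to 77.6 CPM in batch 1 and from 93.4 to 73.1 CPM in batch 2.

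Atp1b1, which encodes a beta subunit of the sodium pump, did not differ detectably, with a log2 fold change of 0.02 (adjusted p = 0.787). Slc9a3, the apical sodium-proton exchanger, gave 0.30 (SE 0.23, adjusted p = 0.322). In HF-LF against HF, 4 of the 27 were called higher and 0 lower, beside 10.3% of all genes, among them Wnk4 (0.42, SE 0.11, edgeR adjusted p = 0.0198), Furin (0.27, SE 0.07, 0.0220) and Nedd4l, the ligase that removes the channel from the membrane (0.27, SE 0.06, 0.0104). The median log2 fold change of the list was -0.03 for HF against LF, near the -0.01 of all genes.

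Glucocorticoid target genes were mixed. Of 20 such genes, 2 were higher and 5 lower in HF against LF in both batches, beside 18.1% of all genes called. Dusp1, Nfkbia, Errfi1, Per1 and Angptl4 were in a gene list that the study drew from these samples, so their direction is not independent evidence. Higher were Angptl4, a lipase inhibitor (log2 0.59, SE 0.19, edgeR adjusted p = 0.0292), and Anxa1, an anti-inflammatory protein (0.46, SE 0.13, 0.0139). Lower were Dusp1, a MAP kinase phosphatase (-0.69, SE 0.16, 0.00624), the clock gene Per1 (-0.49, SE 0.13, 0.0103), Arrdc2 (-0.39, SE 0.09, 0.00582), Rhob (-0.38, SE 0.09, 0.00669) and Nfkbia, which restrains NF-kappa-B (-0.30, SE 0.08, 0.0124). The list's median was -0.19. In HF-LF against HF, beside 10.3% of all genes called, 2 were higher (Per1 0.42, adjusted p = 0.0311, and Bcl6 0.32, 0.0323) and 2 lower (Angptl4 -0.79, 0.0150, and Anxa1 -0.41, 0.0329).

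Of 14 genes of steroid metabolism and receptor partners, 12 passed the filter (Cyp11b1 and Hsd11b1 did not). In both batches for HF against LF, where 18.1% of all genes were called, Ptges3, which encodes the co-chaperone p23, rose (log2 0.33, SE 0.07, edgeR adjusted p = 0.00570) and Cyp11a1, the side-chain cleavage enzyme of steroid synthesis, fell (-1.32, SE 0.41, 0.0217) from a low level of 0.928 CPM in LF and 0.254 CPM in HF in batch 1 and of 1.37 and 0.729 CPM in batch 2. In HF-LF against HF, where 10.3% of all genes were called, Ptges3 fell (-0.29, SE 0.07, 0.0152). For HF-LF against LF, 0 genes of the 3 lists were called by edgeR, and the smallest unadjusted p-values belonged to Hsp90aa1 (log2 -0.32), Rhob (-0.23), Cebpd (-0.27) and Kcnn4 (-0.11), all at an adjusted p of 0.980. Over the 3 lists, 14 genes were called for HF against LF and 11 without the 2 HF libraries that were highest for Scnn1g, and 9 were called for HF-LF against HF and 0 without them. With 1 library left out, HF against LF gave 9 such genes without HF library 3 of batch 1, and HF-LF against HF gave 14 without HF library 2 of batch 1, 3 without HF library 3 of batch 1, 2 without HF library 2 of batch 2, and 5 without HF-LF library 2 of batch 1 or HF-LF library 1 of batch 2.

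**Figure D5:**
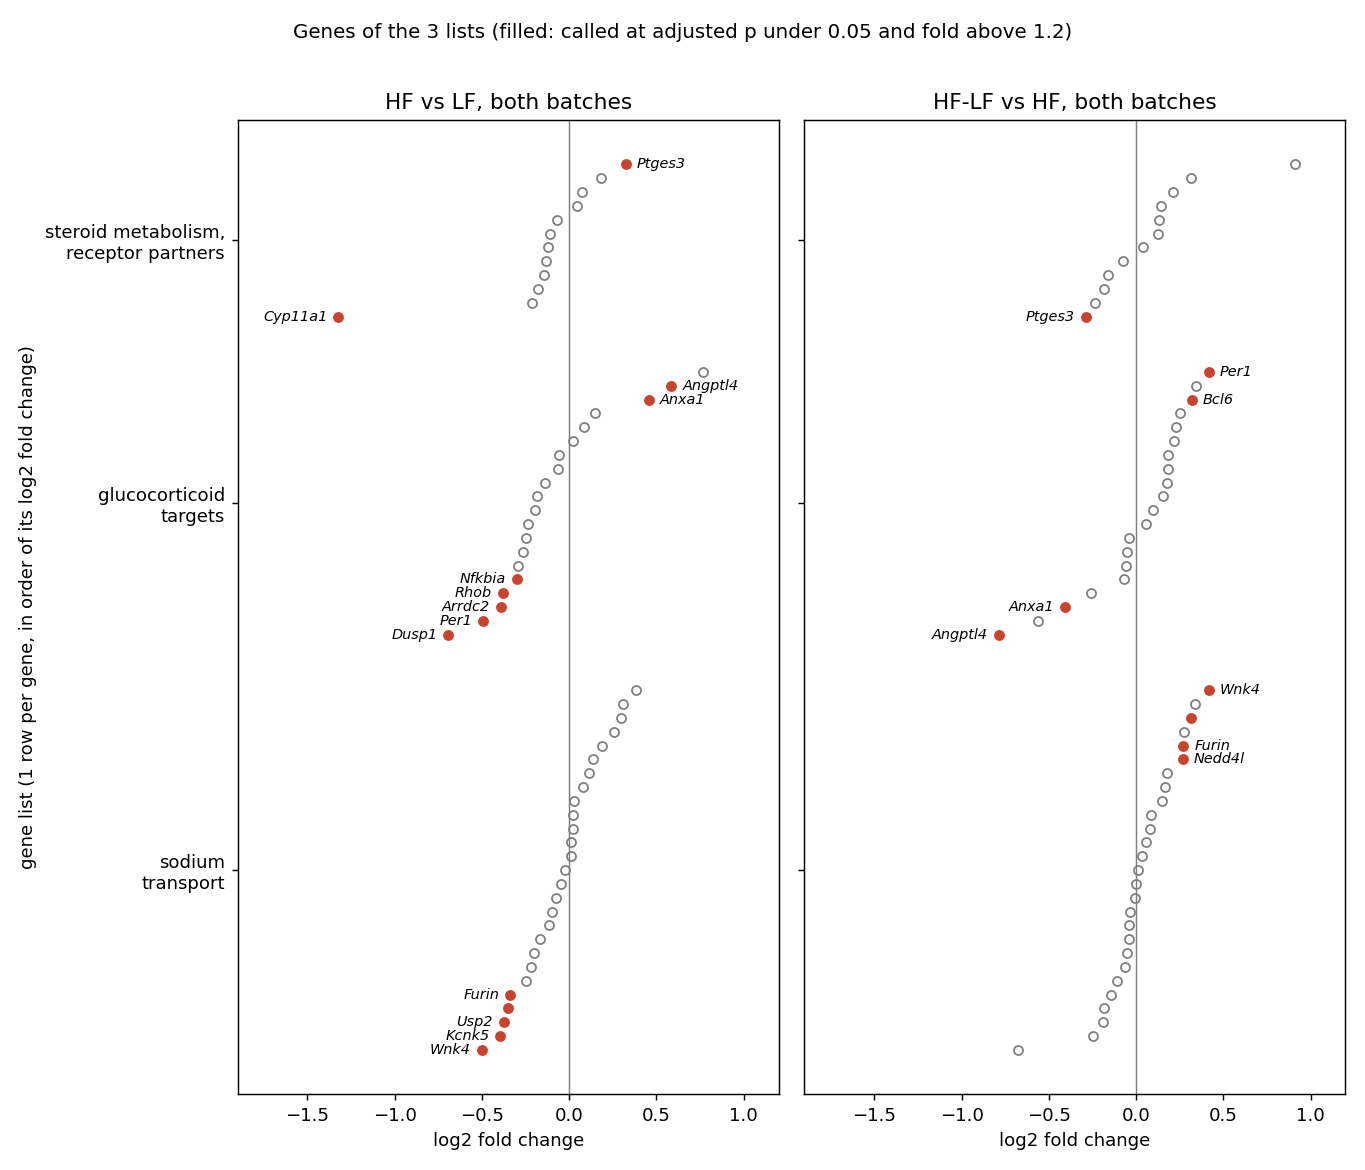
Log2 fold change of every tested gene of the sodium transport, glucocorticoid target and steroid metabolism lists in both batches, with 1 row per gene in order and filled points for called genes, most of them named. In HF against LF 3 genes of the lists were called higher and 11 lower, and in HF-LF against HF 6 were higher and 3 lower.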

How the data were processed

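Ribosomal RNA was depleted from total RNA, and stranded libraries were sequenced as read pairs. Per the submitters' processing notes, the authors used cutadapt 1.2.1, STAR 2.5, the mm10 genome and featureCounts 1.5.0-p1 of Subread, and they deposited whole-number counts per gene. How featureCounts treated strand and reads with several matches is not given in the sources used here, and no other locus of the table overlapped any of the 9 genes. Counts were analysed in R 4.3.3 with edgeR 4.0.16 (TMM factors, filterByExpr by diet, quasi-likelihood test, Benjamini-Hochberg adjustment over all 14428, 14377 or 14385 genes tested), with batch as a term where both batches entered. CPM values use TMM factors within a batch, and log2 CPM a prior count of 2. The biological coefficient of variation was 0.158, 0.102 and 0.134 for batch 1, batch 2 and both. Levels per kb divide by the union of GENCODE M21 exons, and promoter windows are those of RefSeq. The 9 genes, the gene lists, the markers and the tests were chosen with earlier results of these data known. Named were all 9 genes, the called genes of each list (at most 8 of largest change) and the 3 genes most correlated with each of the 9, a few of which are not reported here. Alternatives were DESeq2 1.42.0, its size factors, no filter, a replicate block, voom sample weights (limma 3.58.1) and each library left out. A further alternative treated same-numbered libraries of a diet as 1 mouse, with voom in place of edgeR. The code was tested on simulated data. No columns of the table were left out. Depth limits precision most for genes with few counts, and the floor of 3 counts covers counting error alone. Scnn1g, with 104 reads in LF library 1 of batch 2, lay above the floor but still carried counting error.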

Additional observations from a re-analysis of the deposited data

Results flagged for a closer look

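Scnn1a in HF-LF library 3 of batch 1, at 103 CPM, lay far below the other 3 libraries of its group, which stood at 116 to 119 CPM. Of the 36 sets of values examined in this way, all from LF or HF-LF groups, this was the only one. Chance alone picks about 1 in 20 groups, or 1.8 of them. The HF groups, with 3 libraries in each batch, were too small for this check and were not examined.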

How the results depend on the processing

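All 9 genes lay above the floor of 3 counts in every library, with a lowest value of 2.96 CPM. In both batches, Scnn1a, Nr3c1 and Nr3c2 kept their direction for HF against LF and HF-LF against HF under every alternative, as did Scnn1b, Scnn1g, Sgk1, Hsd11b2 and Fkbp5, but the calls of those last 5 depended on the libraries used. Without both HF libraries highest for Scnn1g, an alternative chosen after the data were seen, 1 of the 9 genes was called for HF against LF (4 with all libraries) and 0 for HF-LF against HF (5), 0 genes of the 3 lists were called for HF-LF against HF (9), and 1186, 192 and 3 genes of the whole table were called for HF against LF, HF-LF against HF and HF-LF against LF.

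DESeq2 called 512 genes for HF against LF in batch 1 (edgeR 0) and 1845 in batch 2 (1069), 17 for HF-LF against HF in batch 1 (1), and 6, 16 and 6 for HF-LF against LF in batch 1, batch 2 and both (0, 1 and 0), with 2 of the 9 genes for HF against LF in batch 2. DESeq2 size factors called 1 gene and no filter 2 genes for HF against LF in batch 1, and no filter 2 for HF-LF against HF in batch 1. Without the filter, calls in both batches for HF-LF against HF were 587 higher and 802 lower, against 783 and 705. Voom with sample weights called 2422 and 1991 genes for HF against LF in batches 1 and 2, 3 for HF-LF against HF in batch 1, and 0 and 3 for HF-LF against LF in batch 2 and both. Of the 9 genes it called 3, 2 and 1 for HF against LF in batch 1, batch 2 and both (in both, the 4 higher calls of edgeR were lost and Tsc22d3 was called lower), and 3 and 2 for HF-LF against HF in batch 2 and both. It turned the sign of uncalled values for HF against LF in batch 1 (Fkbp5 -0.092, Scnn1b -0.15, Scnn1g -0.031), Nr3c1 in batch 2 (0.0032), Tsc22d3 for HF-LF against HF in batch 1 (0.093), and Fkbp5 (0.024) and Nr3c2 (0.0078) for HF-LF against LF in both. The cause of these changes was not tested.

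The replicate block, which treats equal library numbers as pairs, called 92 and 2080 genes for HF against LF in batches 1 and 2, 0 for HF-LF against HF in batch 1, and 0 and 1 for HF-LF against LF in batch 2 and both. Of the 9 genes it called 3 for HF against LF in batch 2, and in both batches 5 for HF against LF (4 higher and 1 lower, with Scnn1b lost, Hsd11b2 gained as higher and Nr3c2 gained as lower) and 6 for HF-LF against HF. Deviations of same-numbered libraries correlated from -0.372 to 0.396 across diets within a batch (9 of 20 pairs over 0.1). Across batches within a diet they correlated from -0.324 to 0.221 (4 of 11). No range was computed for libraries with different numbers, so these values cannot tell whether the numbers pair the libraries. Taking same-numbered libraries of a diet as 1 mouse called 4 genes for HF-LF against LF in both batches and lost Scnn1b for HF against LF (voom adjusted p = 0.0569). That fit changed the test from edgeR to voom as well, so the effects of the 2 changes cannot be told apart. It estimated the correlation of same-numbered libraries of a diet at -0.102.

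With each library left out in turn, the 9 genes gave 0 to 2 calls in batch 2 and 1 to 6 in both batches for HF against LF, and 0 to 5 and 2 to 7 for HF-LF against HF. The whole table gave 0 to 1352, 15 to 2560 and 1591 to 3703 calls for HF against LF in batch 1, batch 2 and both, 0 to 3, 11 to 2778 and 501 to 2669 for HF-LF against HF, and 0 to 6, 0 to 2 and 0 to 3 for HF-LF against LF. The fewest calls came without HF library 2 of batch 2 (15 and 11 within batch 2) and without HF library 3 of batch 1 (1591 and 501 in both). The lists gave 9 to 19 and 2 to 14. Uncalled log2 fold changes that changed sign were those of HF against LF for Fkbp5 (-0.16 to 0.97) and Scnn1b (-0.063 to 0.81) in batch 1 and Nr3c1 in batch 2 (-0.072 to 0.030), those of HF-LF against HF for Nr3c1 in batch 2 (-0.010 to 0.098) and Tsc22d3 in batch 1 (-0.15 to 0.042), batch 2 (-0.056 to 0.29) and both (-0.052 to 0.092), and Nr3c2 for HF-LF against LF in both (-0.032 to 0.018).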
